A study of Ovis aries with 16 samples.

Results

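The miR-30 family is a group of related microRNAs (miRNAs), short RNAs that guide silencing proteins to messenger RNAs. Here it was read out as the rows of the miRNA table whose name is MIR30 followed by a letter. This rule gave 4 of the 105 rows, MIR30A, MIR30B, MIR30C and MIR30D, and all 4 passed the filter on low values in every comparison. MIR30E was not analysed here.

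A miRNA is cut from a hairpin precursor, and bases near its 5′ end, the seed, pair with target messenger RNAs and lower their output. The members of the miR-30 family share a seed and are made from several precursors at separate places in the genome. The family is known for restraining fibrotic and matrix genes such as that of connective tissue growth factor. Its member miR-30c is known in liver for lowering microsomal triglyceride transfer protein, which loads lipid onto lipoproteins.

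The animals were 8 female sheep, and small RNA of their liver and muscle was sequenced. Of these, 4 were controls (ewes 98, 131, 132 and 201) and 4 were labelled prenatal T, exposed to excess testosterone before birth (ewes 48, 185, 233 and 255). Each ewe gave a liver and a muscle library, so the 16 libraries form 4 groups of 4: control liver, prenatal T liver, control muscle and prenatal T muscle. The labels used here give no age, breed, dose or window of exposure and do not name the muscle. Both tissues were bulk samples, in which fewer cells of a type and less RNA per cell cannot be told apart.

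Libraries held 206304 to 755344 miRNA reads in liver and 113522 to 885316 in muscle, with the fewest in muscle of ewe 255. The muscle miRNA MIR133, a regulator of muscle differentiation, took 0.0290% to 0.227% of miRNA reads in livers and 37.2% to 56.4% in muscles, with the highest liver value in ewe 98 and the lowest muscle value in ewe 255. The 3 measured miRNAs of a liver list (MIR148A, MIR152 and MIR194) together took 10.8% to 15.6% in livers and 0.232% to 0.413% in muscles. Both tissues thus carried their labelled markers, although MIR1 and MIR122, the defining miRNAs of muscle and liver, are not among the rows used. The 2 measured blood miRNAs (MIR16B and MIR150) took 0.388% to 0.744% in livers and 0.406% to 1.01% in muscles. The library numbers in the labels fall into a lower run of 9 libraries and a higher run of 7, with a gap between them. Only the livers of ewes 98 and 48 are in the lower run, and only the muscle of ewe 255 is in the higher one, so tissue and run are nearly the same split.

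In the RefSeq annotation of sheep (assembly ARS-UI_Ramb_v3.0) MIR30D and MIR30B lie side by side with no gene between them, and ZFAT is the next protein-coding gene after MIR30B. MIR30C lies inside NFYC, which encodes a subunit of the transcription factor NF-Y. MIR30A lies inside the long non-coding RNA gene LOC114116445, with OGFRL1 as the next coding gene. MIR30B overlaps another such gene, LOC114116349. Both of these long non-coding RNA rows had 0 reads of 4349156 long non-coding RNA reads in the 16 libraries, which allows a share of up to 6.9e-05%. How reads that fit several genes were assigned is not given in the sources used here. Nothing about the transcripts around MIR30A and MIR30B is therefore read from these rows.

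As a share of miRNA reads, MIR30A was the member that set liver apart from muscle. In control liver it took 2.71%, 2.51%, 2.09% and 2.21% of miRNA reads (ewes 98, 131, 132 and 201), a mean of 2.38% ± 0.284 (SD, n = 4). In prenatal T liver it took 2.65%, 2.62%, 2.17% and 2.19% (ewes 48, 185, 233 and 255), a mean of 2.41% ± 0.266 (SD, n = 4). Every one of these 8 livers was above every muscle. In control muscle the share was 0.226%, 0.226%, 0.245% and 0.229%, a mean of 0.231% ± 0.00891 (SD, n = 4). In prenatal T muscle it was 0.251%, 0.256%, 0.181% and 0.242%, a mean of 0.233% ± 0.0352 (SD, n = 4). The mean share was thus 10.3-fold higher in liver, both in control and in prenatal T ewes. This fold depends on MIR133, which fills much of the muscle total. With MIR133 left out of the total, the mean was 2.38% in control liver and 0.488% in control muscle, and 2.41% and 0.475% in prenatal T ewes. The muscle mean was then 0.205 of the liver mean in control ewes and 0.197 in prenatal T ewes.

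MIR30D took nearly the same share of miRNA reads in both tissues, with MIR133 counted in the total. The control livers held 1.86%, 2.35%, 2.18% and 2.06%, with a mean of 2.11% ± 0.206 (SD, n = 4), and the control muscles 2.43%, 1.89%, 2.42% and 2.46%, with a mean of 2.30% ± 0.271 (SD, n = 4). The prenatal T livers held 2.37%, 2.44%, 2.13% and 2.23%, with a mean of 2.29% ± 0.139 (SD, n = 4), and the prenatal T muscles 2.15%, 2.61%, 1.99% and 2.06%, with a mean of 2.20% ± 0.281 (SD, n = 4). The ranges of all 4 groups overlapped, and muscle of ewe 131 was low among the controls. With MIR133 left out of the total, the mean of MIR30D was 2.12% in control liver and 4.86% in control muscle. In prenatal T ewes it was then 2.29% and 4.53%. On that total the 8 livers (1.87% to 2.44%) lay below the 8 muscles (3.27% to 5.61%).

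MIR30C, the member known for its part in lipoprotein assembly, also had overlapping shares in all 4 groups. Its mean share was 0.512% ± 0.0623 in control liver, 0.548% ± 0.0334 in prenatal T liver, 0.548% ± 0.0404 in control muscle and 0.515% ± 0.105 in prenatal T muscle (SD, n = 4 each). The lowest library was muscle of ewe 255 with 0.392% (95% Wilson interval 0.357% to 0.430%) and the highest was muscle of ewe 48 with 0.642%. Both of these muscles belong to prenatal T ewes, so the largest spread of MIR30C lay inside that group. With MIR133 left out of the total, the mean of MIR30C was 0.512% in control liver and 1.16% in control muscle. In prenatal T ewes it was then 0.549% and 1.08%. On that total the 8 livers (0.427% to 0.573%) lay below the 8 muscles (0.624% to 1.40%).

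MIR30B, the neighbour of MIR30D, was the scarcest member. Its mean share was 0.0677% ± 0.0198 in control liver, 0.0769% ± 0.01003 in prenatal T liver, 0.0661% ± 0.00490 in control muscle and 0.0634% ± 0.00442 in prenatal T muscle (SD, n = 4 each). The 2 highest libraries were the livers of ewes 98 and 48, with 0.0966% and 0.0892%, and these are the 2 livers in the lower run of library numbers. The difference in MIR30B that went with the run over all 16 libraries is given with the tissue comparison. Counting error was largest in muscle of ewe 255, where 71 reads gave 0.0625% with a 95% Wilson interval of 0.0496% to 0.0789%. These intervals reflect the error of counting alone, because copies of a molecule made by PCR cannot be recognised without molecular identifiers. With MIR133 left out of the total, the mean of MIR30B was 0.0677% in control liver and 0.140% in control muscle. In prenatal T ewes it was then 0.0770% and 0.130%. On that total the 8 livers (0.0526% to 0.0969%) lay below the 8 muscles (0.0995% to 0.155%).

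**Figure D1:**
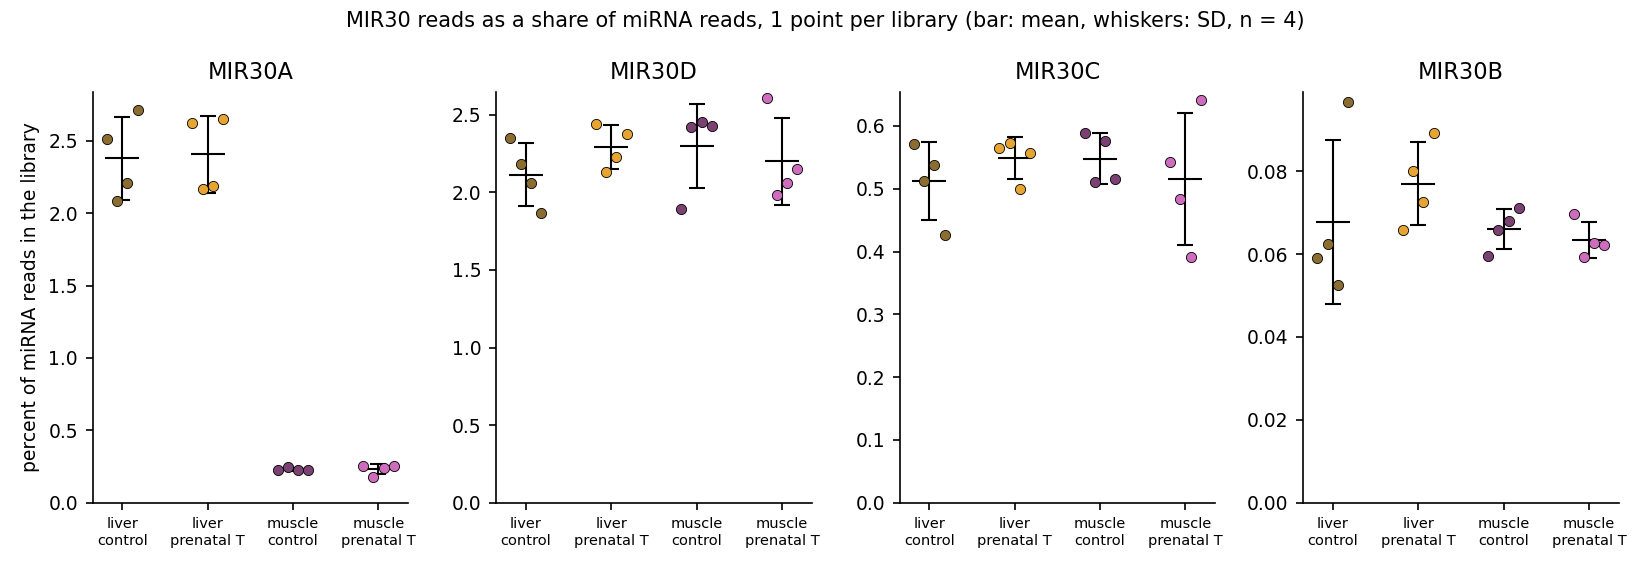
Share of miRNA reads (percent, linear axes from 0 with a separate scale per panel) taken by each MIR30 row, with 1 point per library, a bar for the mean and whiskers for the SD of the 4 libraries in a group. The 8 livers lie far above the 8 muscles for MIR30A, with means of 2.38% and 2.41% against 0.231% and 0.233%. With MIR133 counted in the total, as here, the tissues overlap for the other members.

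Together the 4 rows took 5.07% ± 0.303 of miRNA reads in control liver, 5.32% ± 0.412 in prenatal T liver, 3.14% ± 0.254 in control muscle and 3.01% ± 0.358 in prenatal T muscle (SD, n = 4 each). The lowest liver held 4.84% and the highest muscle 3.48%, so the tissues did not overlap in this summed share. Its direction depended on MIR133: with that row left out of the total, the summed share was 5.08% ± 0.304 in control liver and 6.64% ± 0.761 in control muscle, and 5.33% ± 0.412 and 6.21% ± 1.33 in prenatal T liver and muscle (SD, n = 4 each). The mean was then 1.31-fold higher in muscle in control ewes and 1.17-fold in prenatal T ewes. Every control liver (4.84% to 5.50%) was below every control muscle (5.64% to 7.36%). Over both treatments the 8 livers (4.84% to 5.69%) lay inside the range of the 8 muscles (4.38% to 7.48%). The low end of that range was muscle of ewe 255, and the other prenatal T muscles held 6.21% to 7.48%. By share of reads, which is counted per row and not per base, MIR30A ranked 13th of 105 rows in control liver and 31st in control muscle. MIR30D ranked 16th and 8th, MIR30C 30th and 20th, and MIR30B 44th and 35th. In control liver the rows next to MIR30A were MIR26B with 2.39% ± 0.165 and MIR194, a miRNA enriched in liver, with 2.37% ± 0.283 (SD, n = 4). MIR26B was higher than MIR30A in 3 of 4 control livers and MIR194 in 2 of 4, so these ranks do not separate beyond the spread. In control muscle MIR30A stood between MIR16B with 0.263% ± 0.0290 and MIR21, a miRNA known in fibrosis, with 0.195% ± 0.118 (SD, n = 4). MIR16B was higher than MIR30A in 3 of 4 control muscles and MIR21 in 1 of 4. MIR30D had MIRLET7C above it and MIR21 below it in control liver, with 2.20% ± 0.376 and 1.93% ± 0.594. In control muscle its neighbours were MIR125B and MIRLET7F, with 2.32% ± 0.298 and 2.18% ± 0.173 (SD, n = 4). These neighbours were higher than MIR30D in 2, 3, 2 and 1 of 4 libraries, in the order named, so none was separated from it.

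Members were also set on a scale per base of precursor, using the RefSeq precursor lengths of 67 bases for MIR30A, 88 for MIR30B, 105 for MIR30C and 70 for MIR30D. On this scale control liver held 137 ± 12.6 normalised reads per base of MIR30A, 117.2 ± 16.0 of MIR30D, 18.9 ± 3.10 of MIR30C and 2.94 ± 0.688 of MIR30B (SD, n = 4). Levels of MIR30A and MIR30D overlapped there, from 122 to 149 and from 95.6 to 134. Control muscle held 137 ± 21.8 normalised reads per base of MIR30D, 21.7 ± 1.38 of MIR30C, 14.4 ± 0.864 of MIR30A and 3.13 ± 0.388 of MIR30B (SD, n = 4). No pair of members overlapped in control muscle, so MIR30A moved from beside MIR30D in liver to below MIR30C in muscle. In prenatal T muscle the levels per base of MIR30A (10.8 to 16.3) and MIR30C (11.1 to 26.5) overlapped between ewes. Not divided by length, their normalised reads there ran from 723 to 1091 and from 1170.5 to 2785 and did not overlap. The scale uses the length of the precursor and not that of the mature miRNA. Counted in reads within each of these muscles, MIR30A had 0.373 to 0.618 of the reads of MIR30C.

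The make-up of the family's own reads shows the same shift without any scaling between libraries. Of all MIR30 reads, MIR30A made up 46.8% ± 4.38 in liver and 7.39% ± 0.591 in muscle of control ewes, and 45.1% ± 1.52 and 7.73% ± 0.918 in prenatal T liver and muscle (SD, n = 4). MIR30D made up 41.7% ± 3.62 and 72.9% ± 3.06 in controls and 43.1% ± 1.15 and 73.1% ± 2.65 in prenatal T ewes. Of the reads of the 4 MIR30 rows, liver therefore held nearly equal parts of MIR30A and MIR30D, and muscle mostly MIR30D. MIR30E is not among these rows, so the parts are not those of the whole family. Of the rest, MIR30C held 10.1% ± 1.20 in liver and 17.6% ± 2.58 in muscle of control ewes, and MIR30B 1.34% ± 0.387 and 2.10% ± 0.0791 (SD, n = 4).

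**Figure D2:**
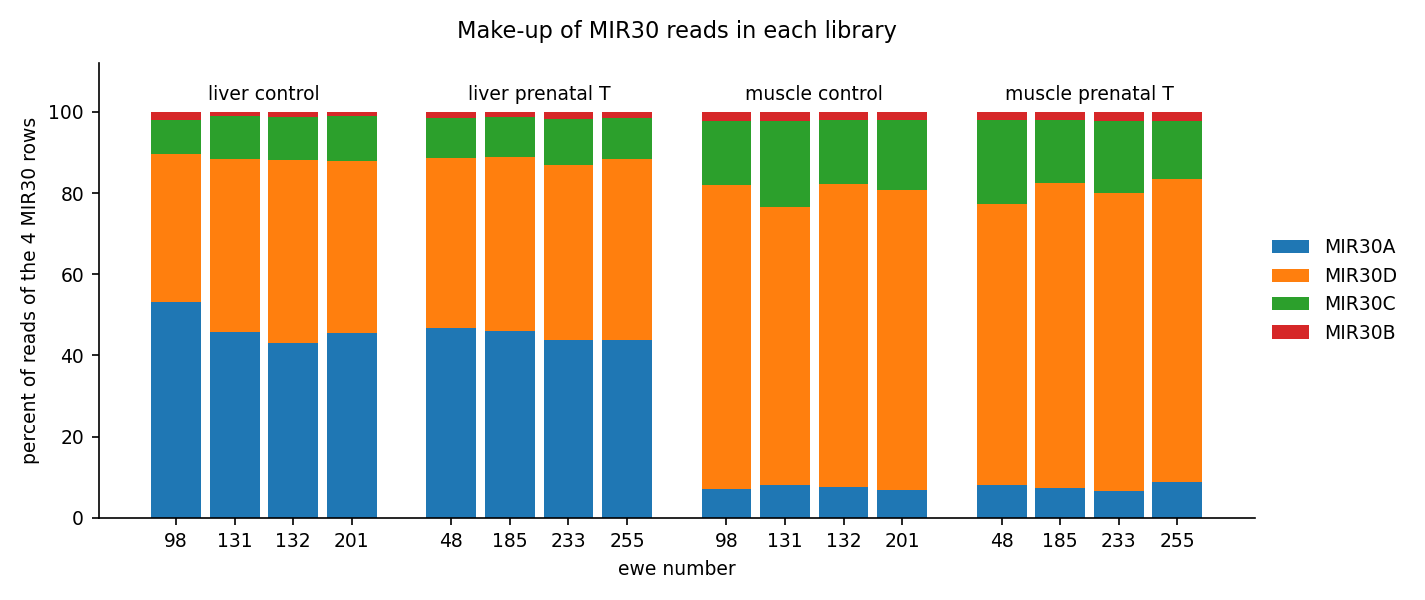
Make-up of MIR30 reads in each of the 16 libraries, as the percent of the reads of the 4 rows (stacked bars from 0 to 100%, 1 bar per ewe and tissue). MIR30A fills 43.1% to 53.2% of the bar in the 8 livers and 6.66% to 8.79% in the 8 muscles, and MIR30D takes the larger part of every muscle.

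The ratio of 2 members inside a library does not depend on how libraries are scaled. The ratio of MIR30A to MIR30D reads was 1.45, 1.07, 0.956 and 1.07 in control livers (ewes 98, 131, 132 and 201) and 1.12, 1.08, 1.02 and 0.982 in prenatal T livers (ewes 48, 185, 233 and 255). It was 0.0933, 0.119, 0.101 and 0.0931 in control muscles and 0.117, 0.0982, 0.0909 and 0.118 in prenatal T muscles. Liver exceeded muscle in 8 of 8 ewes, by 8.35-fold to 15.6-fold with a median of 10.3-fold. The control liver of ewe 98 was the highest of all, and without it the livers ran from 0.956 to 1.12. MIR30A shifted against the other members too, with median liver-over-muscle ratios of 10.2 against MIR30C and 8.94 against MIR30B, and neither of these overlapped between tissues.

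The other 3 members kept close to each other across tissues. Reads of MIR30C were 0.241 ± 0.0159 of those of MIR30D in liver and 0.239 ± 0.0440 in muscle (SD, n = 8 libraries per tissue). Reads of MIR30B were 0.0332 ± 0.00903 of those of its neighbour MIR30D in liver and 0.0289 ± 0.00164 in muscle. The median liver-over-muscle ratio was 1.11 for MIR30C to MIR30D, 1.06 for MIR30B to MIR30D and 0.985 for MIR30B to MIR30C, and the tissues overlapped in each. Shifts between tissues were common among miRNAs: of the 2211 pairs of the 67 miRNAs with reads in all 16 libraries, 53.2% did not overlap between tissues, and 19.5% shifted by at least as much as MIR30A to MIR30D. The shift of MIR30A is therefore large within the family but not rare in the table.

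Liver and muscle of the same ewes were next compared after scaling reads jointly by median-of-ratios factors, since the deposited values had been scaled within each tissue. In control ewes MIR30A had 5511 ± 574 scaled reads in liver and 1514 ± 106 in muscle (SD, n = 4), 3.63-fold higher in liver. Its log2 fold change was 1.86 (SE 0.14, limma adjusted p = 2.74e-07). In prenatal T ewes it had 6120 ± 1071 and 1461 ± 341 scaled reads, 4.23-fold higher in liver, with a log2 fold change of 2.08 (SE 0.21, limma adjusted p = 7.03e-07). MIR30A was higher in liver under every scaling tried, with log2 fold changes of 1.86 to 4.06 in control ewes and 2.04 to 4.16 in prenatal T ewes.

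On this scale the other members were higher in muscle. In control ewes MIR30D had 4946 ± 845 scaled reads in liver and 15096 ± 2359 in muscle (SD, n = 4), 3.06-fold higher in muscle (log2 fold change -1.61, SE 0.18, limma adjusted p = 7.2e-06). MIR30C had 1202 ± 250 and 3574 ± 148 scaled reads (log2 fold change -1.60, SE 0.18, limma adjusted p = 7.2e-06). MIR30B had 154 ± 27.9 and 433 ± 50.8 (log2 fold change -1.49, SE 0.18, limma adjusted p = 1.36e-05). All 4 members passed the test in control ewes and the groups did not overlap for any of them, among 76.3% of the 76 miRNAs tested that passed and 76.3% that did not overlap. A call is therefore common in this comparison: 42.1% of the miRNAs tested were called higher in liver and 34.2% higher in muscle. MIR30A was the 19th highest of 76 log2 fold changes, and MIR30D, MIR30C and MIR30B were the 8th, 9th and 10th lowest. The median of the members was -1.54 against 0.13 over all miRNAs tested.

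In prenatal T ewes the same members passed in the same directions, among 62.7% of 75 miRNAs called, with 36% higher in liver and 26.7% higher in muscle. The log2 fold change was -1.23 (SE 0.19, limma adjusted p = 4.77e-05) for MIR30D, -1.19 (SE 0.25, limma adjusted p = 0.000866) for MIR30C and -1.02 (SE 0.24, limma adjusted p = 0.00177) for MIR30B. Scaled reads of MIR30D were 5819 ± 761 in liver and 13943 ± 3473 in muscle, of MIR30C 1389 ± 141 and 3322 ± 1136, and of MIR30B 194 ± 24.4 and 400 ± 80.7 (SD, n = 4). The groups did not overlap for any of the 4 members, against 61.3% of all miRNAs tested. The median of the members was -1.10 against 0.20 over all miRNAs tested.

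The direction of MIR30B, MIR30C and MIR30D depended on the scaling, and MIR133 alone took 52.5% ± 2.39 (SD, n = 4) of miRNA reads in control muscle. With reads scaled to the library's total of miRNA reads, the log2 fold changes in control ewes were -0.12 for MIR30D, -0.10 for MIR30C and -0.0031 for MIR30B (limma adjusted p = 0.428, 0.531 and 0.989). With MIR133 left out of the total they were -1.19, -1.18 and -1.08. With reads scaled to the total of the 4 RNA classes (miRNA, snoRNA, snRNA and long non-coding RNA) they turned to 0.59, 0.60 and 0.70, higher in liver, and passed (limma adjusted p = 0.00151, 0.00286 and 0.00735). On that last scale 97.6% of 83 miRNAs tested were called, so a pass there is not particular to the members. These scalings moved the median of all miRNAs tested from 0.13 to 1.81, 0.88 and 2.42. The share of calls that were higher in liver went from 55.2% to 94.4% with the miRNA total, 66.7% with that total less MIR133 and 95.1% with the 4-class total. In prenatal T ewes that share was 57.4%, 89.2%, 67.3% and 97.3% in the same order. MIR30A lay above the median of all miRNAs under each scaling and the other members below it.

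**Figure D3:**
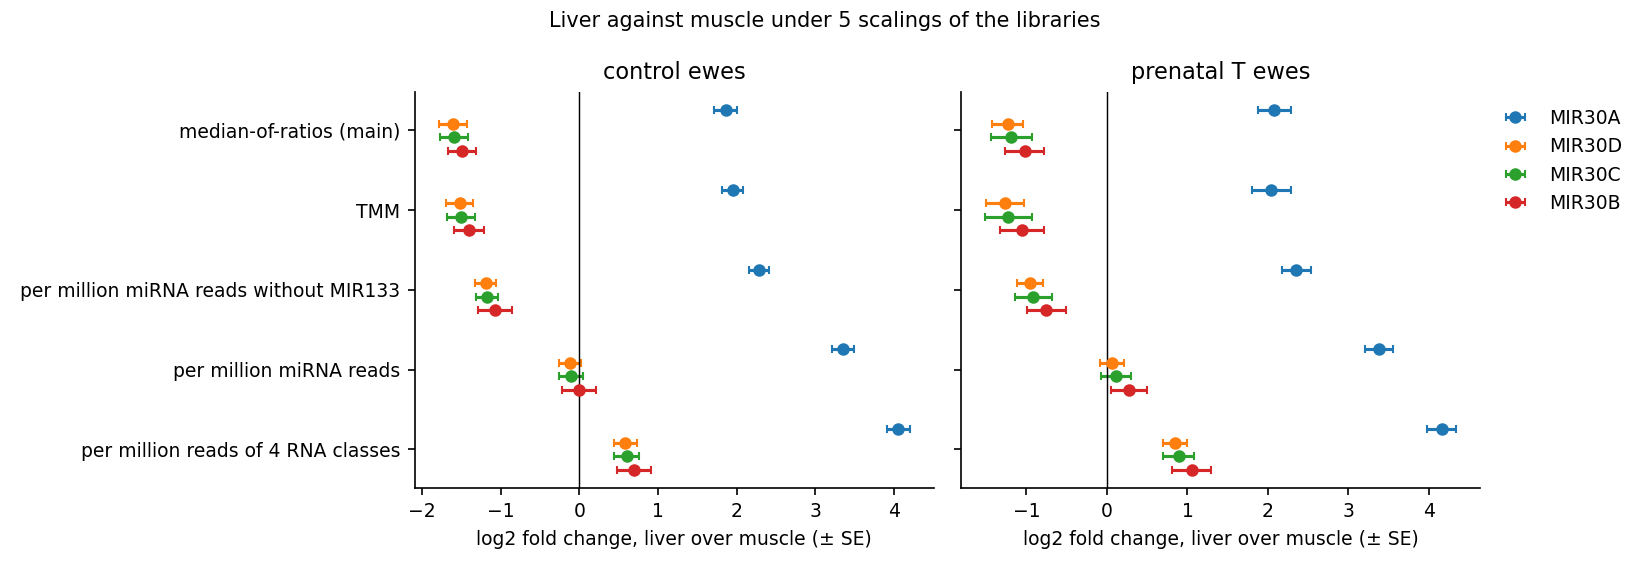
Log2 fold change of liver over muscle (x axis, points with SE whiskers) for the 4 MIR30 rows under 5 ways of scaling libraries, in control ewes (left) and prenatal T ewes (right), with 4 livers and 4 muscles each. MIR30A stays right of 0 throughout, from 1.86 to 4.06 in control ewes, and the other 3 rows move together from about -1.6 to above 0 as the scaling changes, with a nearly constant distance to MIR30A.

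The run of library numbers was checked in a comparison of all 8 livers with all 8 muscles, added after the data had been seen. The log2 fold changes were 2.05 for MIR30A, -1.17 for MIR30B, -1.31 for MIR30C and -1.34 for MIR30D, all past the limma threshold, among 84.2% of 76 miRNAs called, 47.4% higher in liver and 36.8% higher in muscle. With the run as a term they were 2.18, -0.88, -1.20 and -1.28, and all 4 passed. Within the lower run, with 2 livers and 7 muscles, they were 2.03, -0.99, -1.70 and -1.63, and all 4 passed. In both of these fits at least 52 miRNAs were called, so a pass was common there too. The higher run holds 6 livers and a single muscle, that of ewe 255, which is the shallowest library, so its values are given with no test: 2.34 for MIR30A, -0.70 for MIR30B, -0.45 for MIR30C and -0.78 for MIR30D. The run itself went with a log2 difference of -0.46 in MIR30B (higher against lower run, SE 0.16, limma adjusted p = 0.0538) and of -0.21, -0.17 and -0.095 in MIR30A, MIR30C and MIR30D.

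Prenatal T and control ewes were then compared within each tissue, the question the series was made for. No member passed the test in either tissue. In liver, limma called 0 of 81 miRNAs (0%) and in muscle 0 of 64 (0%), and neither edgeR nor DESeq2 made a call in either tissue. Before adjustment, p was under 0.05 for 0 miRNAs in liver and for 5 in muscle, with no member among them. Groups that did not overlap were found for 1.23% of the liver rows tested and 3.12% of the muscle rows, and for no member. P-values here measure the spread between 4 ewes in each group.

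MIR30A in liver had 9728, 9994, 8172 and 8784 normalised reads in control ewes (98, 131, 132 and 201) and 9835, 11110, 7353 and 7777 in prenatal T ewes (48, 185, 233 and 255). The highest and the 2 lowest livers were all prenatal T, so the control values lay inside the prenatal T range. The log2 fold change was -0.040 (95% interval -0.42 to 0.34, limma adjusted p = 0.959). MIR30A in muscle had 993, 879, 1006 and 976 normalised reads in controls and 1091, 1031, 803 and 723 in prenatal T ewes, again with the controls inside the prenatal T range. Its log2 fold change was -0.098 (95% interval -0.46 to 0.26, limma adjusted p = 0.825).

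MIR30D in liver had 6690, 9366, 8551 and 8196 normalised reads in controls and 8818, 10322, 7238 and 7916 in prenatal T ewes, with a log2 fold change of 0.062 (95% interval -0.32 to 0.44, limma adjusted p = 0.959). MIR30D in muscle had 10652, 7370, 9951 and 10484 in controls and 9339, 10493, 8829 and 6144 in prenatal T ewes, with a log2 fold change of -0.16 (95% interval -0.53 to 0.21, limma adjusted p = 0.778). The lowest liver was control ewe 98 and the lowest muscle was prenatal T ewe 255, and the groups overlapped in both tissues.

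MIR30C in liver had 1529, 2275, 2007 and 2142 normalised reads in controls and 2068, 2393, 1943 and 1776 in prenatal T ewes (log2 fold change 0.048, 95% interval -0.38 to 0.47, limma adjusted p = 0.959). MIR30C in muscle had 2260, 2293, 2102 and 2456 in controls and 2785, 2185, 2151 and 1170 in prenatal T ewes (log2 fold change -0.20, 95% interval -0.65 to 0.25, limma adjusted p = 0.778). The prenatal T muscles held both the highest and the lowest value of the 8. MIR30B in liver had 347, 235, 244 and 209 normalised reads in controls and 332, 279, 271 and 258 in prenatal T ewes (log2 fold change 0.16, 95% interval -0.32 to 0.64, limma adjusted p = 0.959). MIR30B in muscle had 311, 231, 270 and 290 in controls and 270, 280, 264 and 187 in prenatal T ewes (log2 fold change -0.15, 95% interval -0.58 to 0.28, limma adjusted p = 0.788). Apart from ewe 98, every control liver was below every prenatal T liver for MIR30B, and without ewe 98 its log2 fold change was 0.31, the highest of the leave-one-out values, which did not pass either.

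Muscle of ewe 255 was the lowest of the 8 muscles for all 4 members in normalised reads. It was also the muscle with the fewest miRNA reads, the lowest share of MIR133 (37.2%) and the only muscle in the higher run of library numbers. Which of these goes with the low values was not tested. Without this library the log2 fold changes in muscle were 0.0064 for MIR30A, -0.017 for MIR30B, 0.052 for MIR30C and 0.0023 for MIR30D. As a share of miRNA reads the same library was the lowest muscle for MIR30C alone. With MIR133 left out of the total it was the lowest muscle for all 4 members, with 0.386% for MIR30A, 0.0995% for MIR30B, 0.624% for MIR30C and 3.27% for MIR30D.

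How the prenatal T effect differed from liver to muscle was tested next, and the difference (liver less muscle, log2) was 0.058 for MIR30A (SE 0.26, limma adjusted p = 0.921), 0.31 for MIR30B (SE 0.32), 0.25 for MIR30C (SE 0.31) and 0.22 for MIR30D (SE 0.25, limma adjusted p = 0.841 for the last 3). No member passed, among 0% of 76 miRNAs called by limma, with 2 at an unadjusted p under 0.05. The median absolute log2 fold change of the members was 0.055 in liver and 0.15 in muscle, against 0.15 and 0.20 over all miRNAs tested. The intervals leave room for changes of up to 1.56-fold in liver, the upper bound of MIR30B, while the upper bound for MIR30A in liver was 1.27-fold. In muscle the lowest bound was that of MIR30C, a log2 fold change of -0.65.

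**Figure D4:**
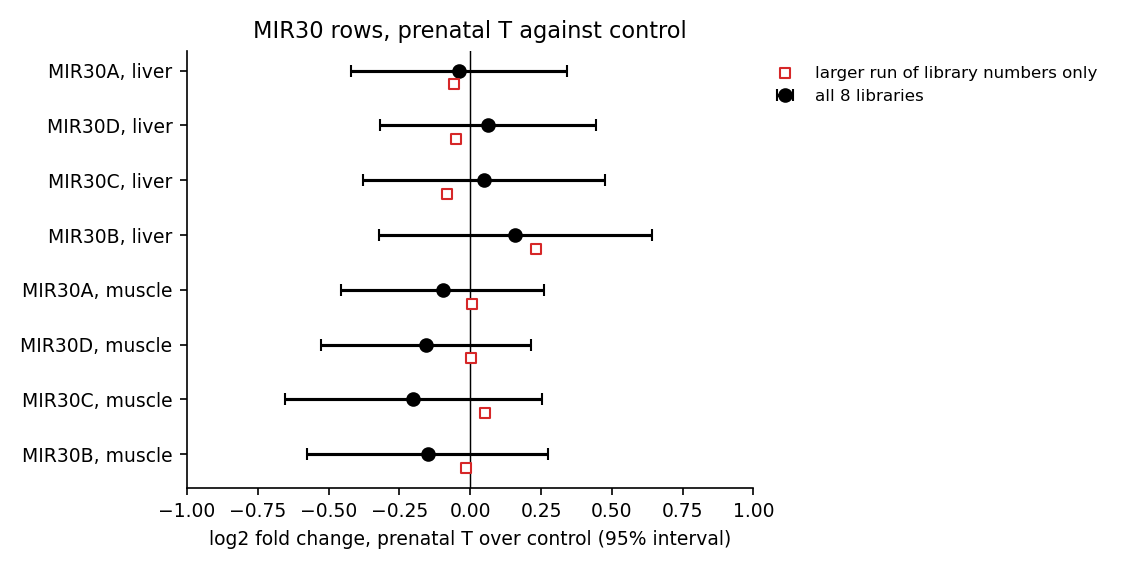
Log2 fold change of prenatal T over control (x axis) for each MIR30 row in liver and muscle, as filled points with 95% intervals over all 8 libraries of a tissue and open squares for the larger run of library numbers alone (6 livers or 7 muscles). Every interval spans 0, and in muscle the squares, which leave out ewe 255, lie between -0.017 and 0.052.

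Within groups, the members varied together to different degrees. Deviations from the 4 group means of log2 scaled reads were correlated over the 16 libraries, which share scaling factors, so the coefficients are descriptions. Pearson's r was 0.80 for MIR30C and MIR30D, 0.78 for MIR30A and MIR30D, 0.69 for MIR30A and MIR30C and 0.55 for MIR30A and MIR30B. It was 0.46 for MIR30B and MIR30D, which lie side by side, and 0.32 for MIR30B and MIR30C. Without muscle of ewe 255 these last 2 were 0.23 and -0.12, while MIR30C and MIR30D kept 0.72 and MIR30A and MIR30D 0.71. MIR30D was the row most like MIR30A among the 67 miRNAs compared, family members included.

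Outside the family, with 64 candidates, the rows most like MIR30A were MIR152, a miRNA of the miR-148 family, with r = 0.70, and MIR99A with 0.62. For MIR30B they were MIR380 with 0.78 and MIR103, a regulator of insulin sensitivity, with 0.73. For MIR30C they were MIR26B with 0.91 and MIR374B with 0.87. For MIR30D they were MIR26A with 0.77 and MIR29A, which targets collagen genes, with 0.73. Without muscle of ewe 255 the 8 coefficients ran from 0.56 for MIR103 to 0.84 for MIR26B. Each is over 16 libraries, and MIR26B had the highest value with MIR30C both with and without that library.

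Lists of miRNAs known in processes where miR-30 also acts were set beside the members. Of 13 listed miRNAs known in fibrosis and matrix, 10 rows were measured and tested in liver and 7 in muscle, and 0 passed between prenatal T and control ewes. Between liver and muscle of control ewes, with median-of-ratios scaling, 5 of these 10 rows were higher in liver, including MIR21 with a log2 fold change of 1.92 and MIR200B, a miRNA of epithelial cells, with 7.51, and 4 were higher in muscle, including MIR133 with -11.06. In prenatal T ewes these counts were 5 and 1. Over all miRNAs tested, 42.1% were called higher in liver and 34.2% higher in muscle in control ewes, and 36% and 26.7% in prenatal T ewes, and nothing particular to the list is read from its counts. The median of this list was 0.094 in control and 0.65 in prenatal T ewes, against 0.13 and 0.20 over all miRNAs. Of 14 miRNAs known in lipid handling, 5 were measured and 3 of them were higher in liver in control ewes, among them MIR148A, which acts on cholesterol uptake in liver, with a log2 fold change of 3.59. In prenatal T ewes 2 of these 5 were higher in liver, and none of the 5 was called higher in muscle in either comparison. The shares of all miRNAs called higher in liver, 42.1% and 36%, stand beside these counts too, which rest on 5 rows. Of 14 miRNAs known in insulin and glucose handling, 12 rows were measured, with 1 higher in liver and 8 higher in muscle in control ewes and 1 and 5 in prenatal T ewes, against 34.2% and 26.7% of all miRNAs called higher in muscle. The list's median was -0.84 in control and -0.56 in prenatal T ewes. The let-7 member MIRLET7B, for example, had a log2 fold change of -1.74 in control ewes. The list counts depended on the scaling, as those of all miRNAs did. Scaled to total miRNA reads, the insulin list had 7 rows higher in liver and 0 higher in muscle in control ewes, and 6 and 3 in prenatal T ewes. Scaled to the 4-class total it had 10 and 0, and 9 and 0. On these 2 scales the fibrosis and matrix list had 7 and 9 of its 10 rows higher in liver and 1 higher in muscle, in control and in prenatal T ewes alike, and all 5 lipid rows were higher in liver. Of all miRNAs tested, 77.9% and 92.8% were called higher in liver on these scales in control ewes, and 68.2% and 88.0% in prenatal T ewes. The shares called higher in muscle were 4.65% and 4.82%, and 8.24% and 2.41%. Nothing particular to the lists is read from these counts. No row of the lipid and insulin lists passed between prenatal T and control ewes in liver or muscle. MIR29B-1 and MIR29B-2, which give the same mature miRNA, have the same values in every group, so both rows count in these numbers and may rest on the same reads. The insulin list also counts both MIR181A-1 and MIR181A-2, whose values were nearly the same (means of 4637 and 4718 normalised reads in control muscle). These rows may share reads too. How reads that fit more than 1 row were assigned is not given in the sources used here, and the close sequences of the MIR30 rows carry the same uncertainty.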

How the data were processed

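Small RNA of liver and muscle from 8 ewes (16 libraries, 4 groups of 4) was analysed. Per the submitters' processing notes, cutadapt 3.2, STAR 2.6.0c and featureCounts 1.6.1 were used. What each did, and the build, is not given in the sources used here. As deposited, the authors' values are a normalised signal: each library's reads over its own size factor, set within each tissue and RNA class. Every one of 1432 miRNA values above 0 gave whole reads within 0.001, and these recovered reads gave shares, ratios and joint scaling.

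Comparisons used limma 3.58.1 (variance trend, R 4.3.3) on log2(value + 1), over all miRNAs with a mean of at least 5, with Benjamini-Hochberg adjustment and a threshold of 0.05. Fold changes are on this log2(value + 1) scale, which understates changes of low rows. The tests within a tissue used the deposited values, and the tissue tests used recovered reads over median-of-ratios factors. Alternatives were TMM and total scaling, edgeR 4.0.16, DESeq2 1.42.0, other pseudocounts and filters, leaving out libraries and the ewe as a block. The ewe numbers in the labels pair liver and muscle of the same animal; the correlation of their deviations ran from -0.274 to 0.449 over the 8 ewes, with a median of 0.0353. Replicate libraries differed by far more than sampling noise (chi-square per degree of freedom 17.8 to 208 over 24 pairs), so none was merged. Shares carry 95% Wilson intervals. The limma test was checked on simulated data.

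Rows named were all MIR30 rows, their neighbours in share, the 2 miRNAs most like each and the listed miRNAs. Counts of list members under other scalings were added after seeing the data. The members, lists and tests were chosen with earlier results of these data known. All 105 rows matched a RefSeq miRNA entry.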

Additional observations from a re-analysis of the deposited data

Results flagged for a closer look

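Of 64 checks of a MIR30 value within a group of 4 libraries, 5 found a library far from the other 3, where chance alone gives about 1 in 20. In control muscle, ewe 132 had the highest share of MIR30A (0.245% of miRNA reads). In the same group, ewe 131 had the lowest share of MIR30D (1.89%) and of the 4 MIR30 rows together (2.77%). In control liver, ewe 98 had the highest ratio of MIR30A to MIR30C (6.36) and of MIR30B to MIR30D (0.0519). The liver of ewe 98 also held 0.227% of its miRNA reads as MIR133, the highest share among the livers, and is the only control liver in the lower run of library numbers. The part of either in its ratios was not tested. No difference between groups in the prenatal T effect on a MIR30 row passed the test.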

How the results depend on the processing

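MIR30A stayed higher in liver and past the limma threshold under every alternative run for the tissue comparisons, leaving aside the higher run of library numbers with its single muscle. Scaled to total miRNA reads, MIR30B, MIR30C and MIR30D lost their calls in control ewes (log2 fold changes -0.0031, -0.10 and -0.12) and turned sign without passing in prenatal T ewes (0.27, 0.11 and 0.065). Scaled to the 4-class total they passed in the other direction, with 0.70, 0.60 and 0.59 in control and 1.05, 0.89 and 0.85 in prenatal T ewes, where 75 miRNAs were called against 47. On that scale 97.6% of the miRNAs tested were called in control ewes and 90.4% in prenatal T ewes. In the comparison of all 16 libraries, MIR30B, MIR30C and MIR30D were at 0.13, 0.0040 and -0.027 when scaled to total miRNA reads. Within the higher run of library numbers MIR30B and MIR30C were at -0.70 and -0.45, where the muscle arm is the lone library of ewe 255, so no dependence on the run is read from them. These totals hold MIR133 and the long non-coding RNA reads of muscle by construction.

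No alternative gave a prenatal T call for a MIR30 row. The small log2 fold changes turned sign for MIR30A in liver with 4-class scaling (0.043), for MIR30C and MIR30D in liver within the higher run (-0.081 and -0.050), and for MIR30A, MIR30C and MIR30D in muscle within the lower run (0.0064, 0.052 and 0.0023). Leaving out 1 library at a time, values in liver ran from -0.15 to 0.051 for MIR30A, 0.065 to 0.31 for MIR30B, -0.073 to 0.12 for MIR30C and -0.032 to 0.14 for MIR30D. In muscle they ran from -0.19 to 0.0064, -0.23 to -0.017, -0.36 to 0.052 and -0.28 to 0.0023, with each highest value from leaving out ewe 255. The difference between tissues for MIR30A ran from -0.017, without ewe 132, to 0.14. The cause of these sign changes was not tested.

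With the ewe as a block the tissue counts were 58 in control and 50 in prenatal T ewes, the log2 fold change of MIR30A in control ewes kept 1.86 with an SE of 0.18, and no call of a MIR30 row changed. Depth limits MIR30B most, with 71 reads in the shallowest library.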
